A study of Arabidopsis thaliana with 16 samples.

Results

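Of 143128 m6A peaks in 6 deposited lists, 36359 had their summit close to a stop codon. A peak was counted when its summit lay in an exon, no more than 100 nt of spliced transcript from the stop codon of a nuclear coding gene's first annotated isoform, on the strand read from the peak's name. The 6 lists held 6152, 6155 and 4501 such peaks after cold and 6099, 6648 and 6804 in control seedlings. They fell on 10898 of the 27372 coding genes on chromosomes 1 to 5 that have a first isoform with a stop codon.

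The series asks what N6-methyladenosine (m6A) does when Arabidopsis meets cold. Whole Arabidopsis thaliana Col-0 seedlings, 20 days old and raised at 22 °C with 12 h of light per day, were kept at 4 °C for 24 h or left untreated. Each of the cold and control groups had 3 lists of peaks from m6A immunoprecipitation of mRNA fragments (MeRIP), 3 mRNA libraries and 2 libraries of polysomal RNA. Whether replicates were grown separately is not in the labels, and the p-values therefore reflect a spread between samples that may be technical. In whole seedlings, a change in the number of cells of a type and a change of RNA per cell cannot be told apart.

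N6-methyladenosine is a methyl mark on internal adenosines of mRNA. A writer complex around the methyltransferases MTA and MTB, with FIP37, VIR and HAKAI, places it, ALKBH proteins remove it, and YTH-domain proteins, called ECT in Arabidopsis, bind it. In plants and animals the mark is known to gather near stop codons and in 3′ UTRs, mostly within the 5-base consensus DRACH (A, G or U, then A or G, then AC, then A, C or U). In plants it has also been described near the motifs URUAY and UGUA, defined where they are counted. It is known in Arabidopsis for roles in embryo development, organ formation and mRNA stability.

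The sequences below show the transcript around the DRACH match nearest to the median summit, for genes whose peaks the results turn on, with the 5 matching bases in capitals and T for U. Each is 30 nt, read 5′ to 3′ on the transcript strand from the RefSeq copy of TAIR10.1. In the first set are genes with a peak at the stop codon in all 6 lists. No DRACH match lay within 50 nt of the median summit in SERK2, XPO1B and ECT9, which also had the peak in all 6 lists and are described further on.
AT4G22740 (chr4:11943946-11943975, minus strand): tcatcattactgTAACTgtatgatgacatg
CAMTA3 (chr2:9476512-9476541, plus strand): tattgactcattAAACTtgtaaattcttgt
SAE1A (chr4:12826049-12826078, plus strand): ccttcacattatGAACAaatttaatgcaga
ETL1 (chr2:526938-526967, plus strand): atgtgttattctAAACAtgtgtaaccacta
AXR1 (chr1:1498242-1498271, minus strand): gctactactgagAAACAaaattttcaatga
PAT2 (chr3:20566348-20566377, minus strand): acttgatcatcaAAACTgaggatctttttt
SNF4 (chr1:2900005-2900034, minus strand): taaatttgctacGAACCtctttcatcattg
FIP37 (chr3:20059318-20059347, plus strand): tgagctagtaggTGACAagaaagatgaagt

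The next 3 genes had a summit at the stop codon in every cold list and in no control list.
AT3G19910 (chr3:6929402-6929431, plus strand): ttataaacaaaaTAACAtcatcagatttcc
CAMTA1 (chr5:2927323-2927352, plus strand): tcttttactttcTAACTttatttcttctct
AT5G04420 (chr5:1246844-1246873, minus strand): aaggtaaatcccAAACAgtttggcgacaca

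The last 3 had one in every control list and in no cold list. The windows of PAT2, AT5G04420 and AT1G09660 hold the stop codon, that of FIP37 is coding sequence, and the others lie in 3′ UTRs. The A in the middle of the match lay 1 nt 5′ of the median summit in AT4G22740, 17 nt 3′ of it in SAE1A and 35 nt 3′ of it in SNF4, so a match near a summit is a description and not a mapped site.
VCL1 (chr2:15910027-15910056, minus strand): tgattgtaactaAAACTcacaagagaagtg
AT1G09660 (chr1:3128028-3128057, minus strand): gcaagcgtgctaAGACAgagatatgatcaa
AT3G43220 (chr3:15197090-15197119, minus strand): ccaaaatcttagGAACAcggaatggtacaa

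Summits on a sense exon of a first isoform made up 95.1% to 96.3% of the nuclear peaks of a list. Summits on an exon of the opposite strand made up 3.44% to 4.69%. Peak names in all lists carry the word Input, and the sources used here do not say which library served as background in the peak call. Cold list 3 stood apart, with 15383 peaks against 23174 to 27310 in the other lists. In it 23.3% of all peaks had a q of at most 0.05, against 30.3% to 37.2% in the others. Results that rest on it are given with and without it. The cold mRNA library 3, with 3282574 gene counts, was also apart from the other mRNA libraries, which held 8428636 to 10965304. The polysome libraries held 12984431 to 22200225.

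Stop codons were the most densely marked zone in 5 of the 6 lists when peaks were counted per length of transcript. Per 100 kb there were 121, 121 and 88.5 stop-codon summits in the cold lists and 120.0, 131 and 134 in the control lists. In the distal 3′ UTR, more than 100 nt past the stop codon, there were 99.6, 111 and 95.8 per 100 kb in cold and 81.3, 103 and 110 in control lists. The exception was cold list 3, in which the distal 3′ UTR was denser. Coding sequence away from both codons had 19.7 to 47.1 per 100 kb in cold and 42.5 to 48.9 in control lists, and the 100 nt on either side of start codons had 11.1 to 22.2 in cold and 18.95 to 22.8 in control.

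The window of 100 nt on either side held the rising side of the peak density and not all of it. In 25-nt bins, each corrected for the transcripts that reach so far, the density averaged 554 and 706 summits per Mb of available transcript at −100 to −76 nt in the cold and control lists. It stood at 989 and 1176 in the bin that begins at the stop codon. It was highest at 100 to 124 nt in cold, at 2064, and at 75 to 99 nt in control, at 2125, and had fallen to 607 and 532 at 250 to 274 nt. Just inside the limit, at 91 to 100 nt on either side, there were 3830 summits with a median fold of 2.42. In the next 10 nt outside it there were 3699 with a median fold of 2.42, so the limit cuts through a continuous population.

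**Figure D1:**
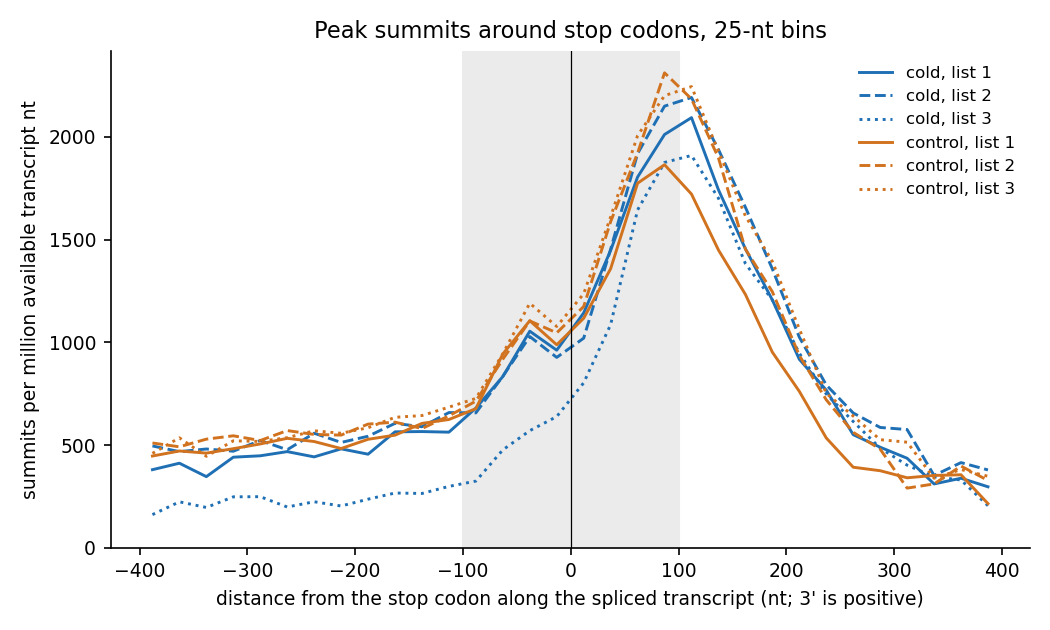
Peak summits per Mb of available transcript (y axis) against the distance from the stop codon along the spliced transcript (x axis, nt, 3′ positive) in 25-nt bins, 1 line per list, blue for cold and orange for control. The mean of the lists is highest at 100 to 124 nt in cold and at 75 to 99 nt in control, 3′ of the stop codon. Control list 3 alone is highest at 100 to 124 nt, as the cold lists are.

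Stop-codon peaks were a similar share of sense exonic peaks in both conditions. They made up 27.9%, 24.4% and 30.6% of those peaks in the cold lists and 27.3%, 25.7% and 26.3% in the control lists. The cold range spanned the control range. The means were 27.6% ± 3.10 in cold and 26.4% ± 0.778 in control (SD, n = 3 each), and the difference of 1.17 percentage points did not pass (exact permutation test, 2-sided, p = 0.6). Without cold list 3 it was −0.319 points. Numbers of peaks averaged 5603 ± 954 in cold and 6517 ± 370.3 in control lists (SD, n = 3 each; exact permutation test, 2-sided, p = 0.3). Without cold list 3 the mean difference was −363.5 peaks, against −914 with it. With 3 lists against 3, no 2-sided p below 0.1 is possible.

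More stop-codon summits lay 3′ of the codon than 5′ of it. The 3′ side held 59.6%, 60.6% and 68.3% of them in the cold lists and 57.3%, 60.2% and 59.4% in the control lists. Cold list 1 lay within the range of the control lists, cold list 2 just above it and cold list 3 well above it. The means were 62.8% ± 4.75 and 58.9% ± 1.51 (SD, n = 3 each), 3.88 points apart (exact permutation test, 2-sided, p = 0.2). Without cold list 3 they were 1.15 points apart. The median summit was 22, 27 and 40 nt 3′ of the codon in the cold lists and 17, 23.5 and 22 nt in the control lists.

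The deposited fold at stop codons lay between that of coding sequence and that of the distal 3′ UTR in each list. The fold is the authors' ratio of a peak over the caller's background. Since the names hold the word Input, the lists alone do not show that it is m6A RNA over input and not the reverse, in which case it would be a depletion. It had a median at stop codons of 2.36, 2.30 and 2.64 in the cold lists and 2.34, 2.31 and 2.30 in the control lists. In the distal 3′ UTR it was 2.70, 2.50 and 3.02 in cold and 2.63, 2.65 and 2.59 in control lists. In coding sequence it was 2.13, 2.09 and 2.50 in cold and 2.13, 2.06 and 2.02 in control lists. Within a list, stop-codon peaks were lower than distal 3′ UTR peaks by a mean of 0.307. They were higher than coding-sequence peaks by 0.220 and higher than start-codon peaks by 0.311. Each difference had the same sign in 6 of 6 lists (exact sign-flip permutation test over lists, 2-sided, p = 0.031 for each, the smallest that 6 lists allow, and 0.0491 adjusted over the 11 tests on peaks). The lists share most of their genes, so they are repeated looks at one transcript population.

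The same order appeared inside the zone. Summits 3′ of the stop codon had a median fold of 2.39 to 2.83 in cold lists and 2.43 to 2.53 in control lists. Summits 5′ of it had at most 2.36 in cold and at most 2.17 in control lists, and were lower than the 3′ summits of their own list in each of the 6. A q of at most 0.05 was reached by 31.1% to 51.2% of the 3′ summits in cold and 44.5% to 51.8% in control lists. On the 5′ side this was 15.3% to 35.8% in cold and 30.2% to 34.5% in control lists. Stop-codon peaks were 206 to 257 nt long at the median in cold lists and 248 to 271 nt in control lists.

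**Figure D2:**
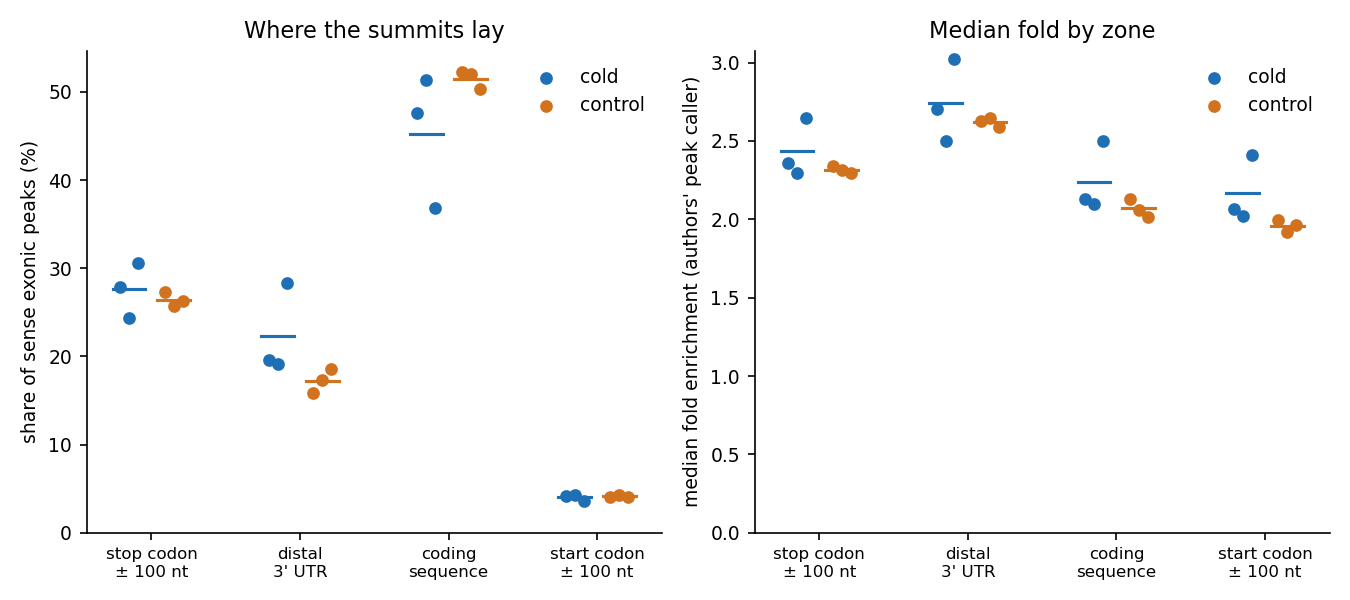
Share of sense exonic peaks (left, %) and median fold given by the authors' peak caller (right) in 4 zones of the transcript, with 1 point per list and a line at the mean of 3 lists, cold left of control. Stop-codon peaks were 24.4% to 30.6% of the peaks, and their median fold lay below that of the distal 3′ UTR and above that of coding sequence in each list.

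Windows of 50 nt on either side of the summits were searched on the transcript strand for 5 motifs. DRACH is defined above. RRACH is its part that starts with A or G, and GGAC can fall inside both. URUAY is U, then A or G, then UA, then C or U, and it overlaps UGUA. DRACH was in 87.0% to 87.5% of stop-codon windows in cold lists and 87.1% to 88.1% in control lists. Other exonic peaks had it in 85.2% to 85.7% in cold and 85.3% to 86.2% in control lists. The mean difference was 1.78 points, positive in 6 of 6 lists (exact sign-flip permutation test, 2-sided, p = 0.031, adjusted 0.0491). Of the 27372 windows centred on all stop codons, 80.9% held it. All windows were cut where the transcript ended, and 22738 of the 27372 transcripts reached 50 nt past the stop codon. Shorter windows can hold fewer motifs, so the shares for all stop codons may be low.

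UGUA and URUAY were more frequent in stop-codon windows than in those of the other exonic peaks pooled, and GGAC less frequent. UGUA was in 45.9%, 46.6% and 49.7% of stop-codon windows in the cold lists and in 43.7%, 45.8% and 46.3% in the control lists. It was in 66.6% to 68.5% of distal 3′ UTR windows in cold and 68.0% to 68.3% in control lists. In coding sequence it was in 15.6% to 19.5% in cold and 17.9% to 19.2% in control lists. Over the 6 lists URUAY was in 38.0% to 42.8% of stop-codon, 55.4% to 57.3% of distal 3′ UTR and 13.6% to 18.0% of coding windows. GGAC was in 14.5% to 17.4%, 9.54% to 11.5% and 22.7% to 25.2% of them. Against distal 3′ UTRs alone, UGUA and URUAY were thus less frequent at stop codons and GGAC more frequent, in every list. Against all other exonic peaks the mean difference was 14.8 points for UGUA, 12.7 points for URUAY and −4.05 points for GGAC, each with the same sign in 6 of 6 lists (exact sign-flip permutation test, 2-sided, p = 0.031, adjusted 0.0491). RRACH differed by 0.621 points (exact sign-flip permutation test, 2-sided, p = 0.09375, adjusted 0.129). Windows centred on all stop codons, cut where the transcript ended, held UGUA in 35.5%, URUAY in 32.1%, GGAC in 15.1% and RRACH in 70.0%. Stop-codon windows were 61.2% to 63.1% A and U, distal 3′ UTR windows 65.7% to 66.5% and coding windows 53.3% to 54.6%, and the part of base composition in the motif differences was not tested.

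The share with UGUA differed with the position relative to the stop codon. In 51-nt windows it was in 9.70% of peaks with the summit 51 to 100 nt 5′ of the codon, against 12.0% of all genes at the middle of that stretch. It was in 34.9% of peaks with the summit 1 to 50 nt 3′ of the codon, against 28.7% of all genes, and in 43.0% at 51 to 100 nt 3′, against 37.8%. For DRACH the shares at 51 to 100 nt 3′ were 63.1% of peaks against 54.4% of all genes, and at 51 to 100 nt 5′ they were 63.5% against 59.1%. Shares of peaks pool the 6 lists and count a gene once per list.

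Bases around the summits changed in steps. The values are of the 12764 stop-codon peaks with a q of at most 0.05 and 100 nt of transcript on either side. U made up 37.5%, 35.0% and 30.05% of the bases at 3, 2 and 1 nt before the summit and 24.7% at the summit. It was 24.6% at 46 nt after the summit, 29.85% at 48 nt, 35.5% at 49 nt and 43.2% at 50 nt. Each step was thus spread over a few nt. The shortest peak was 50 nt in every list, the same as the distance between the steps. The stretches compared next were chosen after these steps were seen. DRACH started 23.8 times per 1000 nt in the stretch from the summit to 49 nt after it, against 20.0 in the 50 nt before and 17.9 in the 50 nt beyond. Each list showed this order, with 23.0 to 25.4 inside the stretch, 19.5 to 20.6 before it and 17.7 to 18.3 beyond it. A made up 33.7% of the bases in that stretch, 30.3% before and 30.1% beyond. Over all lists UGUA started 6.87 times per 1000 nt inside, 7.39 before and 8.50 beyond, an order that cold list 3 and control list 3 did not show. The step positions are a description of where these summits were placed, and the cause of the steps was not tested.

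**Figure D3:**
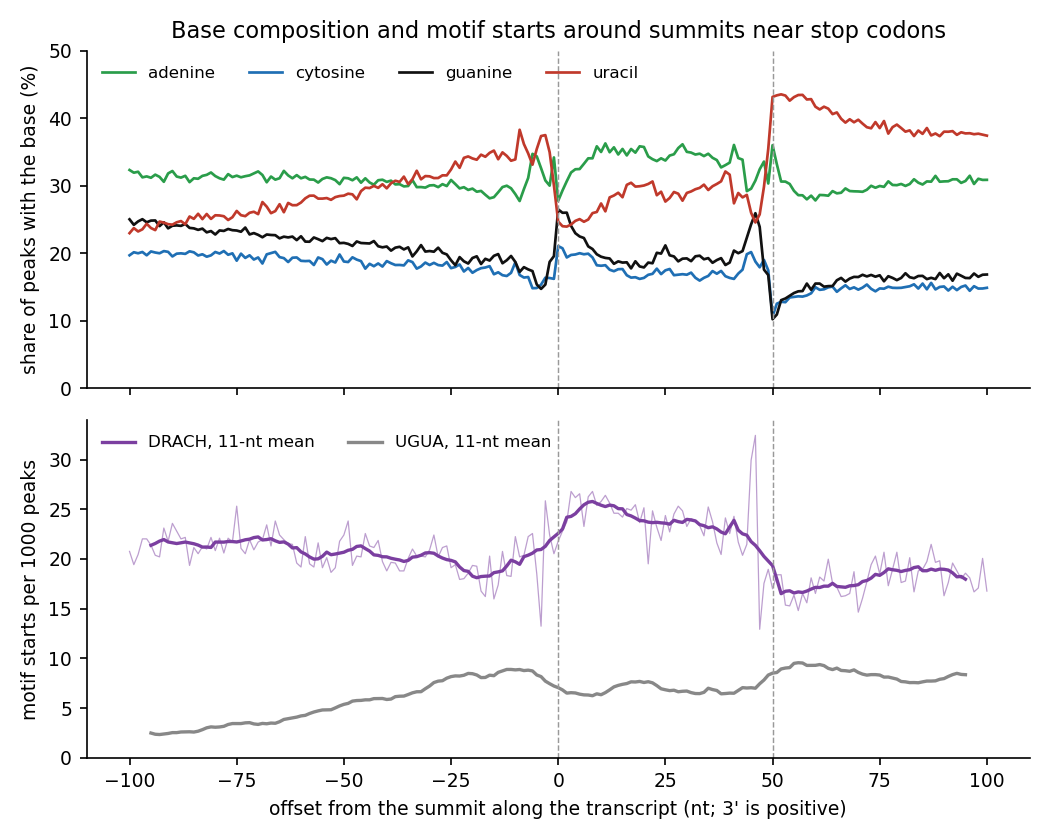
Base composition (top, % of 12764 stop-codon peaks with q of at most 0.05) and motif starts per 1000 peaks (bottom; thin line per position, thick lines 11-nt means) against the offset from the summit along the transcript (nt, 3′ positive). Dashed lines mark the summit and 50 nt 3′ of it, where the uracil share steps down to 24.7% and up to 43.2%, and DRACH starts are densest between them.

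Most genes with a stop-codon peak had it in some of the lists only. Of the 10898 genes, 2242 had it in all 6, while 1061 had it in 1 cold list alone and 1680 in 1 control list alone. A cold list shared 56.0% to 77.4% of its stop-codon genes with another cold list, each share taken of one list. A control list shared 64.6% to 73.0% with another control list, and cold and control lists shared 51.1% to 77.3%. In the 2242 genes the summits of the 6 lists lay within a median of 34 nt of each other, and within 50 nt in 1332 of them, or 59.4%. The median position in cold lists minus that in control lists was 0 nt at the median, with quartiles of −2 and 4 nt, and in 90 genes it was over 100 nt.

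**Figure D4:**
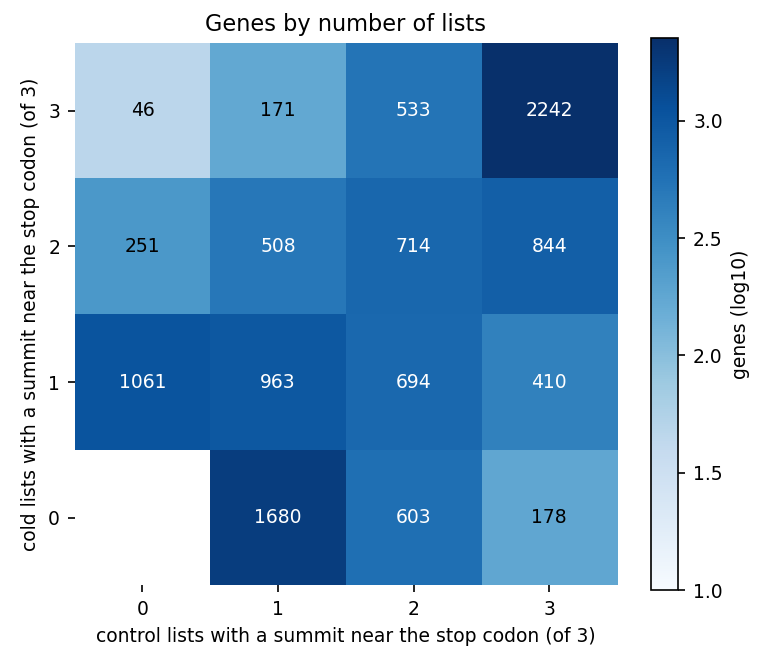
Number of genes with a stop-codon summit by how many of 3 cold lists (y axis) and 3 control lists (x axis) held it, shaded by the log10 of the number. The corner of all 6 lists holds 2242 genes, against 46 genes in 3 cold and 0 control lists and 178 in 0 cold and 3 control lists.

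Genes marked in every list had shorter 3′ UTRs and a nearer last splice junction than expressed genes with no stop-codon peak. These values cover 7184 genes with at least 20 CPM (TMM-normalised CPM, gene counts scaled to library size) in both mRNA groups. The 1349 with a peak in all 6 lists had a median 3′ UTR of 245 nt, against 317 nt in the 2149 with none. Their last junction before the stop codon was 153 nt away at the median, against 178 nt. With the peak in 1, 2, 3, 4 and 5 lists it was 204.5, 202.5, 188, 194.5 and 177 nt, so the distance did not fall steadily. The genes with a peak in all 6 lists had 8 exons at the median, against 6. A junction after the stop codon, a feature that can mark transcripts for nonsense-mediated decay, was annotated in 2.15% of them and in 7.54% of those with none. UGA was the stop codon in 47.2% and 46.4%. The mRNA level per length was 27.6 CPM per kb in the genes marked in all lists and 25.2 in those with none. These are descriptions of annotated genes, with no test.

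Recurrent peaks were most frequent on 3′ UTRs of 100 to under 200 nt, where 34.8% of genes had the peak in all 6 lists. The share was 20.0% from 200 to under 300 nt, 13.3% from 300 to under 400 nt and 11.9% at 400 nt or more. Under 100 nt the share was 16.7% of 126 genes. By mRNA level the share was 14.9% under 10 CPM per kb, 18.2% at 10 to 20, 18.8% at 20 to 50, and 20.9% both at 50 to 100 and above 100. For a gene with a long 3′ UTR the summit may lie beyond the 100-nt limit and was then not counted here.

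The 10 genes described next had the highest fold ranks among those with the peak in all 6 lists, so their high folds are a description. AT4G22740, annotated as a glycine-rich protein, had folds of 7.23, 3.41 and 7.09 in the cold lists and 7.72, 7.22 and 3.53 in the control lists. Its summits lay 87 to 94 nt past the UAA stop codon at position 11944050 to 11944052 of chromosome 4, in the 3′ UTR. SERK2, annotated as a somatic embryogenesis receptor-like kinase, had folds of 6.62, 5.56 and 5.69 in cold and 6.10, 6.76 and 5.15 in control lists. Its summits lay 84 to 98 nt past the stop codon. Neither gene's mRNA passed the test, with log2 changes of −0.14 ± 0.17 and −0.05 ± 0.19 (SE; edgeR adjusted p = 0.57 and 0.866).

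CAMTA3, a calmodulin-binding transcription activator that acts upstream of the CBF cold regulators, was among them. Its folds were 3.70, 5.25 and 7.42 in the cold lists and 4.47, 5.88 and 7.89 in the control lists. The 6 summits fell 68 to 73 nt past the UAA stop codon. Its mRNA was 42.0, 51.6 and 32.9 CPM after cold and 36.1, 28.8 and 31.2 CPM in control seedlings, which overlap, with a log2 change of 0.33 ± 0.20 (SE; edgeR adjusted p = 0.246).

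ETL1, a chromatin remodeller of the SWI/SNF type, had its summits at 68 to 74 nt. SAE1A, a subunit of the SUMO-activating enzyme, had them at 72 to 76 nt. AXR1, which helps activate the ubiquitin-like RUB protein in auxin response, had them at 91 to 96 nt, and SNF4, a subunit of the SnRK1 energy-sensing kinase, at 91 to 98 nt. XPO1B, a nuclear exportin, had summits at 18 to 47 nt, and PAT2, an adaptor subunit for transport to the vacuole, at 7 to 41 nt. DEG5, a protease of the thylakoid lumen, was split between the sides, at −88 or −87 nt in 3 lists and at 88 to 99 nt in the other 3. No mRNA of these 10 genes passed the cold test, and in polysomal RNA SERK2 alone did, at 32.02 and 32.4 CPM after cold against 17.5 and 16.2 CPM in control seedlings (log2 change 0.92; edgeR adjusted p = 0.0488). SERK2 did not pass without cold polysome library 1, without either control polysome library, or under library totals (edgeR adjusted p = 0.0547).

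Few genes had a stop-codon summit in all lists of one condition and none of the other. There were 46 with it in every cold and no control list, 0.422% of the 10898 genes. Over peaks in any exonic zone the same rule held for 0.389% of 16209 genes. The reverse, every control and no cold list, held for 178 genes or 1.63%, against 1.73% over any exonic zone. Both shares were near their background, which includes the stop-codon peaks. Distal 3′ UTRs had 77 genes of the first kind and 61 of the second, 1.03% and 0.819% of 7446 genes. Coding sequence had 42 and 280, 0.36% and 2.40% of 11683 genes. Leaving out a list loosens the rule, and each of the 6 lists left out moved the first count, to 87 to 192. Without cold list 3 the counts were 192 and 236.

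Most of these genes, where expressed, had a summit elsewhere in the lists of the other condition. Of the 15 genes with at least 20 CPM that had the summit in cold lists only, all 15 had another exonic summit in a control list. It lay a median of 142 nt from the stop codon, and within 200 nt in 11 genes. Of the 45 with it in control lists only, 44 had an exonic summit in a cold list, at a median of 143 nt, and within 200 nt in 35. When any overlap of a peak with the 100 nt on either side was counted, 12 of the 15 and 27 of the 45 had a peak there in all 6 lists. Only 1 of the 15 and 4 of the 45 kept their one-sided state. By that overlap rule 7267 genes had a peak at the stop codon in all 6 lists.

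Several of these genes had summits at fixed places that differed between the conditions. AT1G70570, annotated as an anthranilate phosphoribosyltransferase, had summits 7, 5 and 5 nt past the stop codon in the cold lists and 156, 156 and 159 nt past it in the control lists. AT5G04420, a kelch-repeat protein, had them at 7, 7 and 14 nt in cold and 150, 148 and 143 nt in control lists. AT1G09660, an RNA-binding protein of the KH type, had its nearest summits at 121, 121 and 122 nt in the cold lists and at −33, −22 and −7 nt in the control lists. VCL1, a vacuolar sorting protein, had them at 140, 137 and 137 nt in cold and 59, 61 and 71 nt in control lists. HEME2, a uroporphyrinogen decarboxylase of tetrapyrrole synthesis, had them at −25, −25 and −21 nt in cold and −233, −235 and −224 nt in control lists. Of the 15 and 45 genes, 8 of each kind are described. They were named because their summits were on different sides of the limit, so the separation is a description.

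For others the summit lay near the 100-nt limit. AT3G19910 had it at 91, 92 and 98 nt in the cold lists and at 106 nt in each control list. NTL9, a transcription factor of the NAC family, had it at −98, −98 and 100 nt in cold and at −108 nt in each control list. AT2G20060, of the ribosomal protein L4/L1 family, had it at 102, 113 and 112 nt in cold and 61, 34 and 34 nt in control lists. CAMTA1, a relative of CAMTA3 with known parts in drought and cold responses, had it at 57, −91 and 56 nt in cold lists and at −107 or −108 nt in control lists. Its mRNA was 31.6, 37.7 and 25.7 CPM after cold and 41.15, 49.05 and 46.9 CPM in control seedlings, with no overlap. It fell by 0.60 on the log2 scale (SE 0.18; edgeR adjusted p = 0.0401), a call that was lost without any 1 of 5 mRNA libraries, cold 1, cold 3 or any control library.

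AT1G01800 had them at 74, −18 and −18 nt in cold and at −274, −246 and −255 nt in control lists. AT5G20790 had them at −38, −38 and −50 nt in cold lists, with −211 and −213 nt in control lists 2 and 3 and no exonic summit in control list 1. CPK9, a calcium-dependent protein kinase, had them at −164, 198 and 175 nt in cold and at 55, 56 and 55 nt in control lists. ATM1, a myosin of class VIII, had them at −137, −158 and −138 nt in cold and at −73, 56 and 96 nt in control lists. TFIIIA, the transcription factor of 5S ribosomal RNA genes, had them at 167, 160 and −698 nt in cold and at −19, 41 and 46 nt in control lists. AT1G68410 had them at 213, 219 and 192 nt in cold and at 15, 92 and 99 nt in control lists, and AT3G43220, a phosphoinositide phosphatase, at 114, 134 and 135 nt in cold and 0, 93 and 14 nt in control lists.

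Without the CPM limit, one-sided peaks went with the level of the mRNA. Of the 46 genes with the summit in cold lists only, 45 were tested in mRNA, where 22 rose and 5 fell, with a median log2 change of 0.53. Of the 178 with it in control lists only, 176 were tested, and 17 rose and 52 fell, with a median of −0.38. Over all 19261 genes tested, 13.4% rose and 12.3% fell, with a median of −0.01. With at least 20 CPM in both groups, 2 of 15 rose and 4 fell in the first set, and 11 of 45 rose and 5 fell in the second. COR28, a cold-induced clock-linked repressor, had the summit at −9, −26 and −9 nt in the cold lists. Its mRNA was 33.6, 46.1 and 43.0 CPM after cold and 0, 0 and 0.232 CPM in control seedlings. PRR3, a clock pseudo-response regulator, had it at 25, 24 and 29 nt in cold lists, with 16.5, 6.42 and 7.93 CPM after cold and 0.41, 0.0804 and 0.696 CPM in control seedlings. Neither gene had an exonic peak in a control list. In control polysomes COR28 had 38.65 and 0.639 CPM and PRR3 23.6 and 1.33 CPM, so control polysome library 1 held RNA that the control mRNA libraries nearly lacked, and the part of the mRNA level in these peak calls was not tested.

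**Figure D5:**
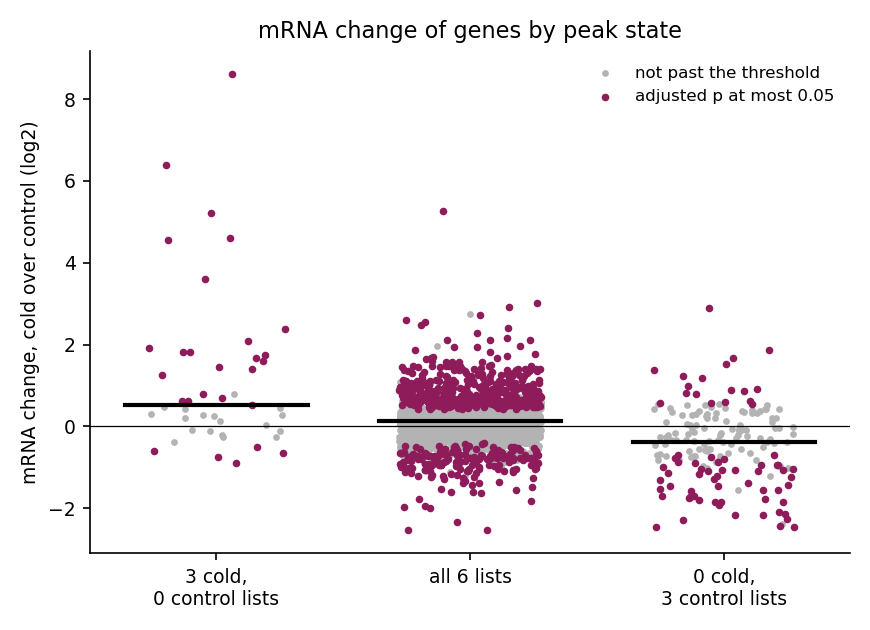
Change in mRNA, cold over control (y axis, log2), for genes with the stop-codon summit in 3 cold and 0 control lists, in all 6 lists, and in 0 cold and 3 control lists. Each point is a gene, coloured where the edgeR adjusted p was at most 0.05, with a line at the median. The medians are 0.53, 0.12 and −0.38.

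Genes with stop-codon peaks changed in mRNA at shares near the background. Of the 10829 tested, 1660 or 15.3% rose and 1371 or 12.7% fell at an adjusted p of at most 0.05 (edgeR quasi-likelihood, Benjamini-Hochberg over every gene in the fit), with a median log2 change of 0.02. The background over all genes tested was 13.4% and 12.3%. The 2239 tested genes with the peak in all 6 lists had 412 or 18.4% rising, 174 or 7.77% falling and a median of 0.12. Coding genes without a stop-codon peak had 11.3% rising and 12.1% falling of 7958, with a median of −0.08. The balance of rises and falls rested on the scaling. With libraries scaled to their totals the log2 change of all genes shifted by a median of −0.16, and 814 members rose and 1644 fell, against 7.07% and 14.9% of all genes tested. Of the genes with the peak in all 6 lists, 168 rose and 216 fell under that scaling, with a median of −0.05. With TMM the counts of all members were 1658 and 1251 without cold mRNA library 3, but 892 and 686 without control mRNA library 2. They were 1026 and 721 without cold library 2 and 1034 and 763 without cold library 1. Shares of all genes in these fits are not given here, so the counts show the dependence on single libraries only.

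The genes described next had the largest mRNA changes among members in all 6 lists with a mean log2 CPM of 4 or more. KIN1, a small cold-induced protective protein, had 615.7, 461.8 and 449 CPM after cold and 9.11, 11.7 and 16.5 CPM in control seedlings. It rose by 5.26 ± 0.28 on the log2 scale (SE; edgeR adjusted p = 2.46e-05), and its summits lay at −61, −62 and −64 nt in cold lists and at −56 nt in each control list. ERD10, a dehydrin, had 1372, 2067 and 1059 CPM after cold and 198, 249 and 197 CPM in control seedlings, a log2 change of 2.72 ± 0.27 (SE; edgeR adjusted p = 0.000523). Its summits lay at 70, 89 and −100 nt in cold lists and at −37, −38 and −44 nt in control lists. AT5G23575, a CLPTM1-family membrane protein, rose by 3.02, BGAL10, a beta-galactosidase, by 2.92, and FLS2, the flagellin receptor, by 2.59 on the log2 scale. Their groups did not overlap, but they were chosen as the largest rises, so the separation is a description. KIN1 has a close copy, KIN2, so its counts and peaks are uncertain where reads cannot tell the copies apart.

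Among the falls, GBSS1, the granule-bound starch synthase of amylose synthesis, had 125, 98.5 and 89.9 CPM after cold and 422, 435 and 862 CPM in control seedlings. It fell by 2.54 on the log2 scale (SE 0.31; edgeR adjusted p = 0.00164). ARD4, of the acireductone dioxygenase family, had 20.1, 28.4 and 13.97 CPM after cold against 117, 122 and 110 CPM, and fell by 2.52 (SE 0.24; edgeR adjusted p = 0.000468). MES12, a methyl esterase, fell by 2.34, BZIP9, a leucine-zipper factor, by 2.00, and MSRB5, a methionine sulfoxide reductase, by 1.98. Cold and control libraries did not overlap for any of the 5, which were chosen as the largest falls, so the separation is a description. These 10 mRNA calls held without each library in turn.

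In polysomal RNA fewer members passed. Of 10809 tested, 500 or 4.63% rose and 453 or 4.19% fell (edgeR, adjusted p of at most 0.05), against 3.87% and 3.95% of the 19239 genes tested. Of the 2237 with the peak in all 6 lists, 131 or 5.86% rose and 52 or 2.32% fell. With 2 libraries a group, leaving a library out leaves 1 library in its group, and single libraries decided these counts. Shares of all genes in such fits are not given here. KIN1 had 788 and 1117 CPM in cold polysomes and 25.98 and 22.1 CPM in control polysomes, a log2 change of 5.29 (edgeR adjusted p = 0.0133). ADH1, the alcohol dehydrogenase of oxygen shortage, rose by 4.52, with 561 and 1014 CPM against 44.8 and 23.1 CPM (edgeR adjusted p = 0.0189). ERD10 rose by 3.62, AT3G18600 by 2.44 and AT5G22100 by 2.39 on the log2 scale, though none of these 3 passed without control polysome library 1, nor AT3G18600 without control library 2. MCCA, a subunit of the mitochondrial carboxylase of leucine breakdown, fell by 3.06, with 7.25 and 9.43 CPM in cold and 78.5 and 58.3 CPM in control polysomes (edgeR adjusted p = 0.0158). AT1G70820, an annotated phosphoglucomutase, fell by 2.26 on the log2 scale. AT1G21500, AT2G29310 and ARD4 had log2 changes of −2.24, −2.18 and −2.12.

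The cold change on polysomes was set against that in mRNA in 1 fit over all 10 libraries. It was higher in 9 and lower in 32 of 10852 members tested (edgeR, adjusted p of at most 0.05). These are 0.0829% and 0.295%, against 0.065% and 0.22% of all 20001 genes tested. With the peak in all 6 lists, 1 gene was higher and 6 were lower of 2239. Without cold polysome library 1 the member counts were 0 and 1, without control mRNA library 2 they were 0 and 5 and without control polysome library 1 they were 0 and 10. Without cold mRNA library 1, 2 or 3 they were 3 and 18, 1 and 8, and 2 and 11. Without cold polysome library 2 they were 14 and 19, and without control polysome library 2 they were 14 and 78.

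Writers, erasers and readers of m6A carried stop-codon peaks themselves in 19 of 23 cases, 4 of them in all 6 lists. Of the 7184 coding genes that reached 20 CPM in cold and in control mRNA, 70.1% had such a peak and 18.8% had it in all 6 lists. Of all coding genes these shares were 39.8% and 8.19%. FIP37, a writer-complex subunit, had its summits 36 to 74 nt 5′ of the stop codon in cold lists and 36 to 73 nt 5′ in control lists. HAKAI, the E3 ligase of the complex, had them at 78, −7 and −8 nt in cold and −7, −7 and −18 nt in control lists. The readers ECT9 and ECT10 were the other 2 marked in all lists. MTA, the catalytic subunit, had a peak in 2 cold and 3 control lists, at −73 nt in both cold lists and at −69, 88 and 85 nt in control lists. Its partner MTB had none, as had ALKBH9A, ALKBH9C and ECT7. MTB, ALKBH9C and ECT7 had exonic summits elsewhere in all 6 lists. ALKBH9A had none in any list and at most 0.0918 CPM in any library. ECT4 had it in 3 cold lists and 1 control list, ECT2 in 0 cold and 2 control lists and ECT3 in 1 cold and 2 control lists, with overlapping peaks in all 6 lists for each of these 3. ALKBH9B, an eraser, had it in 1 cold and 3 control lists, and the eraser ALKBH10B in 1 of each.

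Of these 19 genes 5 rose and none fell in mRNA (edgeR, adjusted p of at most 0.05), with a median log2 change of 0.22, against 13.4% and 12.3% of all genes tested. ECT4 had 78.1, 70.9 and 69.1 CPM after cold and 29.8, 29.4 and 29.8 CPM in control seedlings, and rose by 1.21 ± 0.13 (SE; edgeR adjusted p = 0.00077). ECT2 had 566.5, 665 and 632 CPM after cold and 409, 371 and 400 CPM in control seedlings, a log2 change of 0.57 ± 0.14 (SE; edgeR adjusted p = 0.0193). ECT1, ECT3 and ALKBH10A rose by 0.72, 0.66 and 1.46. The ECT2, ECT1, ECT3 and ALKBH10A calls were lost without cold mRNA library 2 or control library 2, those of ECT3 and ALKBH10A also without cold library 1, and that of ECT3 also without control library 1 or 3. With libraries scaled to their totals 2 of the 19 rose, ECT4 and ALKBH10A, against 7.07% of all genes tested under that scaling. ECT1, ECT2 and ECT3 then had edgeR adjusted p of 0.0982, 0.129 and 0.2. With a replicate block ECT3 had 0.0501. In polysomal RNA 2 of the 19 rose, against 3.87% of all genes tested, MTA by 1.13 and ECT3 by 1.54, neither of which passed without control polysome library 1 or 2, nor ECT3 under library totals (edgeR adjusted p = 0.0516). DGAT1, an enzyme of triacylglycerol synthesis, had no stop-codon summit in any list, with exonic summits elsewhere in 3 cold lists and 1 control list. Its mRNA was 39.2, 41.5 and 31.3 CPM after cold and 4.402, 4.74 and 2.32 CPM in control seedlings, a log2 change of 3.22 ± 0.27 (SE; edgeR adjusted p = 0.000279).

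Cold-induced COR and LEA genes had stop-codon peaks in 12 of 18 cases, 2 of them in all 6 lists, KIN1 and ERD10. Such peaks were on 39.8% of all coding genes, and on 70.1% of those expressed at 20 CPM or more in each condition. For peaks in all 6 lists the shares were 8.19% and 18.8%. Whether any gene list differed from these shares was not tested. In mRNA 11 of the 12 rose, with a median log2 change of 4.98, against 13.4% of all genes tested. In polysomal RNA 8 rose, with a median of 3.73, against 3.87% of all genes tested. These lists were chosen with cold induction known, so their direction is no independent evidence. COR413PM1, a membrane protein, had the summit in 0 cold and 3 control lists although its mRNA was 948, 1047 and 915 CPM after cold and 111, 121 and 136 CPM in control seedlings. COR15B, a chloroplast-stroma protective protein with the near copy COR15A, had it in 1 cold and 3 control lists with 1588, 1535 and 1349 CPM after cold against 6.04, 5.71 and 6.96 CPM. In control polysomes, though, COR15B had 364 and 107 CPM. ERD7 had it in 2 cold and 3 control lists.

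Of 17 cold regulators 9 had stop-codon peaks and 4 had them in all lists, CAMTA3, OST1, HOS1 and ICE1. The comparison for this and the next 2 gene lists is 39.8% of all coding genes, or 70.1% of those expressed at 20 CPM or more. For peaks in all lists it is 8.19% or 18.8%. OST1, a protein kinase of cold and drought signalling, had its summits at 94 to 95 nt in cold and 94 to 97 nt in control lists. In mRNA 1 of the 9 rose and 1 fell, near the 13.4% and 12.3% of all genes tested. Of 21 circadian clock genes 14 had the peak, and ZTL, LKP2 and LNK1 had it in all lists, while 9 of the 14 rose and 1, LNK1, fell by 0.93 (edgeR adjusted p = 0.0174), against the same 13.4% and 12.3%. The LNK1 call was lost without cold mRNA library 2 or control library 2. Of 27 photosynthesis genes 14 had it, with LHCA2 at −4 to 6 nt in cold and at 1 nt in control lists, and LHCB6 at 83 to 89 nt in cold and 69 to 85 nt in control lists. One-sided was LHCB1.4, whose near copies make its reads uncertain, with 0 cold and 3 control lists. In mRNA 1 of the 14 rose and 2 fell, near the 13.4% and 12.3% of all genes tested. Under library totals 1 of the 14 rose and 6 fell, or 7.14% and 42.9%, against 7.07% and 14.9% of all genes tested. PSBS, a photoprotective antenna protein, had it in 2 cold and 3 control lists.

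Of 18 lipid and sugar genes of cold acclimation 9 had the peak, and SFR2, a galactolipid-remodelling enzyme needed for freezing tolerance, had it in all 6 lists at 40 to 53 nt in cold and −3 to 51 nt in control lists. Peaks were on 39.8% of all coding genes and on 70.1% of those expressed at 20 CPM or more. In mRNA 3 of the 9 lipid and sugar genes rose and 3 fell, against 13.4% and 12.3% of all genes tested. FAD8, a plastid fatty acid desaturase, had it in 2 cold and 3 control lists, and BAM1, a beta-amylase, in 3 cold and 2 control lists. BAM1 fell by 1.45 in mRNA on the log2 scale (SE 0.18; edgeR adjusted p = 0.00126). Root markers, as a check of other cell types, had 2 of 6 genes with a peak, SCR in 1 cold list and EXPA7 in 1 control list, and a median of 6.98 CPM after cold and 7.76 CPM in control mRNA.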

How the data were processed

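The authors deposited read counts per gene and, per list, peaks with a score, a fold ratio and −log10 p and q. STAR, HTSeq, MACS2 and the TAIR10 build are named per the submitters' processing notes, with no versions. The weakest peaks of each list had a p near 0.05 before adjustment and q was not limited; each list belongs to 1 sample. Summits were placed on first isoforms of the RefSeq annotation of TAIR10.1, whose chromosome ends no nuclear peak passed. Reference genes without a stop codon in the sequence were left out. Peak lists give no depth, and fold values were used within a list only.

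Lists were compared with exact permutation tests. Counts were tested with edgeR 4.0.16 (TMM, quasi-likelihood, R 4.3.3), after checks on simulated data, with DESeq2 1.42.0 as an alternative. Gene counts only entered library sizes, and between 6.60% and 93.8% of tallied reads of a library were in genes. Reads that align to several places were given to no gene, and the strand setting of the counting is not given in the sources used here; overlapping and antisense genes cannot be told apart. No replicate pair agreed within sampling noise (chi-square per degree of freedom 11.38 or more).

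Named genes were drawn from the m6A list, of which not every member is described, and DGAT1. Also named were the 10 genes with the highest fold ranks among those in all lists and up to 8 one-sided genes each way (all with 20 CPM or more). Up to 3 genes per other list were taken, and up to 5 rises and 5 falls per comparison among genes in all lists whose log2 CPM averaged 4 or more. Other genes were named after their values were seen, among them COR28, PRR3, COR413PM1, COR15B, LHCB1.4 and ICE1. Members and gene lists were chosen with earlier results of these data known.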

Additional observations from a re-analysis of the deposited data

Results flagged for a closer look

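For 6 genes with a stop-codon peak in all lists, the cold change in polysomal RNA differed from that in mRNA by a test of the difference itself (edgeR interaction over 10 libraries, adjusted over all genes tested). AT1G70820, an annotated phosphoglucomutase, had 59.8 and 70.6 CPM in cold polysomes and 336 and 279 CPM in control polysomes, while its mRNA was 37.6, 35.8 and 35.9 CPM after cold and 7.68, 14.7 and 16.3 CPM in control seedlings. The difference was −3.72 (SE 0.39; edgeR adjusted p = 0.00728), and it did not pass without cold polysome library 1. AT2G30600, a BTB/POZ protein, differed by −2.48 (edgeR adjusted p = 0.0247), with 79.8 and 75.5 CPM in cold polysomes against 190.4 and 173 CPM, and 59.3, 95.6 and 53.6 CPM in cold mRNA against 35.4, 25.9 and 26.4 CPM. GBSS1 differed by 3.15 (edgeR adjusted p = 0.0301), with 98.6 and 137.5 CPM in cold polysomes against 57.9 and 88.5 CPM. PDK, pyruvate dehydrogenase kinase, differed by −1.57 (edgeR adjusted p = 0.0253), PIFI by −1.99 and CAF2, a chloroplast splicing factor, by −1.52 (edgeR adjusted p = 0.0498 for both). With libraries scaled to their totals AT2G30600, PDK, PIFI and CAF2 did not pass. Leaving out cold polysome library 1 ended each of these 6 calls. Every call but that of AT1G70820 was also lost without cold polysome library 2, control mRNA library 2 or control polysome library 1. Those of GBSS1, PDK, PIFI and CAF2 were lost without any 1 of the 3 cold mRNA libraries as well, those of PIFI and CAF2 without control mRNA library 1, and that of CAF2 without control mRNA library 3. Total mRNA and polysomal RNA came from libraries of different depth and share of gene reads, and the part of this in the differences was not tested.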

How the results depend on the processing

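Leaving out each list in turn gave cold minus control differences of −1190.5 to −363.5 peaks, −0.319 to 2.78 points for the share at stop codons and 1.15 to 5.48 points for the share 3′ of the codon. Fold differences ranged from −0.328 to −0.293 against distal 3′ UTRs, 0.207 to 0.235 against coding sequence and 0.295 to 0.327 against start codons. Motif differences ranged from 1.72 to 1.89 points for DRACH, 0.44 to 0.783 for RRACH, −4.39 to −3.86 for GGAC, 12.5 to 12.9 for URUAY and 14.6 to 15.1 for UGUA. With 5 lists no p below 0.0625 is possible, so these show the range only. One-sided genes numbered 87 to 192 (cold) and 236 to 461 (control), under a looser rule. Leaving out each library gave 892 to 1658 rises and 686 to 1251 falls in mRNA, 92 to 1122 and 125 to 634 in polysomes, and 0 to 14 and 1 to 78 for the difference of changes. With q of at most 0.05, the share at stop codons turned to −1.14 points, the fold difference to start codons was 0.0979 and did not pass, RRACH passed at 2.16 points, and one-sided genes were 16 and 97. Within 50 nt the fold difference to start codons was 0.183 and did not pass, RRACH passed at 1.61 and 92 genes were in control lists only. Within 200 nt RRACH turned to −0.416 points, and with every isoform it passed at 0.846. The cause was not tested for any of these. Library totals gave 814 rises and 1644 falls in mRNA, turning the balance to falls. For the difference of changes they gave 5 and 19 genes, 0.0461% and 0.175%, against 0.04% and 0.135% of all genes tested. DESeq2 gave 1155 and 841 in polysomes and 133 and 219 for the difference; no filter gave 789 polysomal rises. Only genes in all lists had 412 and 174, 131 and 52, and 1 and 6. Replicate numbers did not pair the mRNA libraries (correlations of same-numbered deviations −0.0369, −0.0291 and 0.252; polysomes 0.475 with 2 pairs). With a replicate block the counts were 1437 and 1266 in polysomes, 28 and 50 for the difference and 1442 and 1222 in mRNA. The 3 comparisons of peak lists could not pass with that block, since 3 pairs allow no 2-sided p below 0.25. Shares of all genes are not given for the block, DESeq2, no filter or fits with a library left out. Those counts show the dependence on processing only.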
